A study of Mus musculus with 6 samples.

Results

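The carbonic anhydrase genes Car2, Car3, Car4, Car8, Car12 and Car13 were followed in single-cell RNA-seq of mouse lung fibroblasts (FBs) and of alveolar organoids after bleomycin injury. They were the 6 members found by symbol, among 20490 genes that all 6 libraries listed. Their unique molecular identifier (UMI) counts were summed by library and by cell type. The lung libraries held GFP+ cells sorted from adult male Pdgfra-GFP mice, in which GFP marks cells that express Pdgfra, the PDGF receptor of lung mesenchyme. The single-dose mice received PBS or bleomycin once by oropharyngeal aspiration and were harvested at day 14. The labels disagree on that bleomycin dose, with 2 U/kg in the protocol and 4 U/kg in the treatment field. The repetitive mice were dosed in 3 successive weeks with PBS or with bleomycin, at 1 U/kg on the first pair of occasions and 0.5 U/kg on the last, and were harvested 14 days later. The organoids combined tomato+ type 2 alveolar epithelial cells (AEC2s) from tamoxifen-induced SpcCreER × Rosa-td26 donors, in which the surfactant protein C promoter drives the Cre that turns on tomato, with GFP+ FBs, cultured for 2 weeks. These FBs came, at day 14, from donors given PBS once in the normal organoids and from donors given bleomycin once at 2 U/kg in the fibrogenic ones. Every condition was 1 library, so no difference had a replicate check, and the intervals given are 95% intervals of counting error only. The GFP+ cells of each library came from 3 pooled mice, and the number of AEC2 donors of the organoids is not given here.

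Carbonic anhydrases convert carbon dioxide and water to bicarbonate and a proton, and back. Car2, Car3 and Car13 are cytosolic enzymes, with Car2 very fast, Car3 slow and best known from muscle and fat. Car4 is held at the outer membrane surface by a lipid anchor and is known from lung capillaries, where it helps carbon dioxide leave the blood. Car12 spans the membrane with its active site outside the cell. Car8 lacks a zinc ligand of the active site and is without catalytic activity, and it is known as a partner of the inositol trisphosphate receptor Itpr1. In the GRCm38 build, Car13 (chromosome 3, 14641727 to 14663002), Car3 (14863512 to 14872523) and Car2 (14886273 to 14900770) lie on the plus strand within 259 kb of chromosome 3. Car8 lies on the minus strand of chromosome 4 (8143362 to 8239041), where the annotation places a pseudogene on the same strand and a microRNA on the other strand. Car4 lies on chromosome 11 (84957786 to 84966044) and Car12 on chromosome 9 (66713686 to 66766845), both on the plus strand.

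Depth differed between libraries, from a median of 2478 UMIs per barcode after repetitive bleomycin to 36841 in the normal organoids. Cell types were given to barcodes with 1000 or more UMIs by lists of 8 marker genes, none of them a carbonic anhydrase. FBs made up 89.4 to 92.6% of the barcodes that passed in the 4 lung libraries, beside few epithelial, endothelial and immune barcodes. The organoids held 2257 and 4389 FBs and 1994 and 1900 epithelial barcodes, normal and fibrogenic. Libraries shared at most 30 barcode sequences. Of the FBs after bleomycin, 38.6% (single dose) and 44.9% (repetitive) were left without a subset by the marker rule, against 8.8 and 7.3% after PBS. Levels are UMIs per 1000000 UMIs of the group (CPM). The 3′ kit, which counts each molecule once near its end whatever the length of the gene, is stated for the single-dose libraries. For the others the kit is not given in the sources used here, and levels of different genes were compared there on the assumption of the same kind of counting.

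Car2 was the only member at a high level in lung FBs. Its level in all FBs was 168 CPM after single-dose PBS, 199.1 CPM after single-dose bleomycin, 121 CPM after repetitive PBS and 118 CPM after repetitive bleomycin. Car4, Car8, Car12 and Car13 stood between 0 and 10.8 CPM in the same 4 groups, and Car3 reached 37.6 CPM in 1 group through a single barcode. FBs held 91.8 to 96.7% of all Car2 UMIs of each lung library, beside 88.7 to 92.9% of the UMIs of all genes.

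Within the FBs, Car2 was far higher in the lipofibroblasts (LipoFBs) than in matrix FBs. LipoFBs are the lipid-storing FBs of the alveolar wall, gated here by Tcf21, Plin2, Col13a1, Wnt2, Hsd11b1, Ces1d, Npnt and Limch1. LipoFB-gated barcodes had 199.7 CPM after single-dose PBS (1026 UMIs in 756 barcodes) and 143 CPM after repetitive PBS (7122 UMIs in 4448 barcodes). Matrix FBs, the Dcn+ Col14a1+ FBs of the adventitia, had 10.6 CPM (6 UMIs in 94 barcodes) and 7.44 CPM (42 UMIs in 643 barcodes). The intervals of these subsets did not overlap in any of the 4 libraries. The log2 ratio of LipoFBs over matrix FBs, on the scale of CPM + 1, was 4.11 (interval 3.06 to 5.36) and 4.10 (3.70 to 4.50) in the PBS libraries and 4.64 (3.99 to 5.36) and 3.74 (3.53 to 3.96) after single-dose and repetitive bleomycin.

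Immune cells were set beside the low level of matrix FBs. In the single-dose libraries the immune gates held 10 to 18 barcodes and 0 to 6 Car2 UMIs each, with levels of 0 to 74.5 CPM, against 10.6 and 14.5 CPM in matrix FBs. In the repetitive PBS library, T cell-gated barcodes had 8.83 CPM and myeloid-gated barcodes 4.10 CPM. After thinning each barcode to 2000 UMIs, 24.4% (23.1 to 25.7%, exact binomial interval) of LipoFBs in that library had a Car2 UMI, against 1.04% (0.382 to 2.25%) of matrix FBs and 3.49% (0.726 to 9.86%) of T cells. Median depths before thinning were 10676, 8546 and 3294 UMIs, and the unthinned shares were 64.8, 4.98 and 3.03%. The intervals of matrix FBs and T cells overlapped. After repetitive bleomycin matrix FBs had 14.6 CPM (12.5 to 17.01) and T cells 12.3 CPM (3.36 to 31.6). B cells had 20.7 CPM (9.47 to 39.3) and myeloid barcodes 2.93 CPM (0.799 to 7.51). The matrix FB interval overlapped those of T and B cells and lay above the myeloid one.

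**Figure D1:**
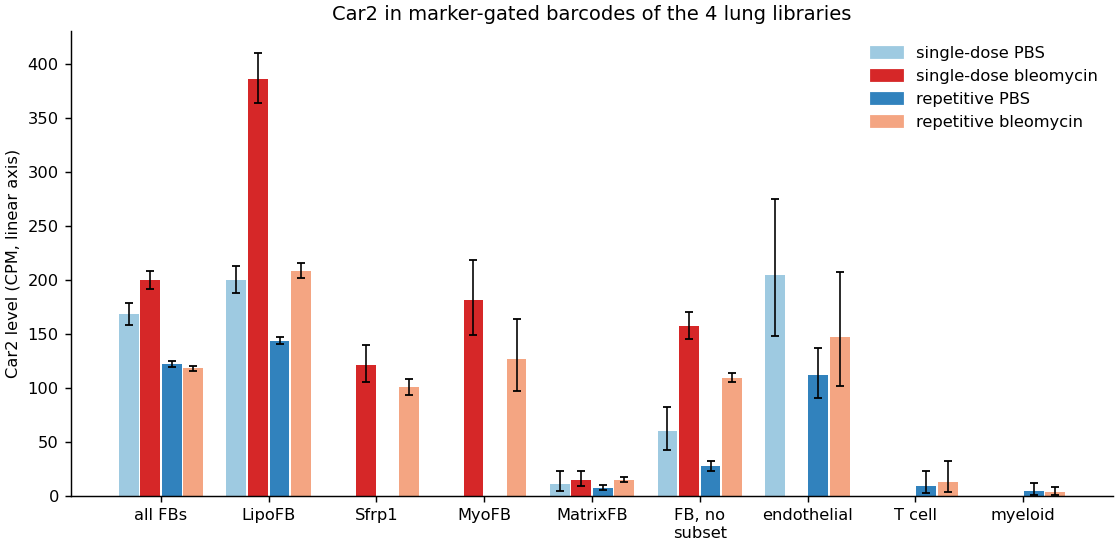
Car2 level (CPM, linear axis) in barcodes gated by markers, with 1 bar for each of the 4 lung libraries and 95% Poisson intervals of counting error. Groups under 20 barcodes are not drawn. The LipoFB bars stand at 143 to 386 CPM and the matrix FB bars at 7.44 to 14.6 CPM.

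After bleomycin, Car2 was also present in the injury-associated FBs. The Sfrp1 list marks FBs known to appear after injury, and the myofibroblast (MyoFB) list includes Cthrc1 and Acta2. Sfrp1-gated FBs had 121 CPM (105 to 139) after a single dose and 101 CPM (93.4 to 108) after repetitive doses. LipoFBs of the same libraries were higher, by a log2 ratio of 1.66 (1.44 to 1.89) and 1.04 (0.93 to 1.16). MyoFB-gated FBs had 181 CPM (149 to 218) in 25 barcodes and 127 CPM (96.5 to 164) in 39 barcodes, and their intervals overlapped those of FBs without a subset (145 to 170 CPM) or of Sfrp1-gated FBs in the respective library. In these small MyoFB groups the 10 barcodes richest in Car2 held 79.1 and 88.1% of its UMIs. Cycling FBs after repetitive bleomycin had 249 CPM (213 to 290), with 91.0% of 167 UMIs in 10 of 32 barcodes, and the interval overlapped the 201 to 216 CPM of LipoFBs. After a single dose the 16 cycling FBs had 185 CPM (146 to 232), below the LipoFBs.

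Car2 was higher in FBs that carried more LipoFB markers, from 2 up to 6 markers. In FBs of the repetitive PBS library thinned to 2000 UMIs, the Car2 level was 3.25 CPM in the 154 barcodes with no LipoFB marker, 64.9 CPM with 3 markers, 148 CPM with 5 and 190 CPM with 6. It was 172 CPM (148 to 199) with 7 markers and 224 CPM (164 to 298) with all 8. After repetitive bleomycin the levels at the same marker numbers were 37.5, 94.3, 183 and 235 CPM. After single-dose bleomycin they were 58.6, 146, 301 and 370 CPM. Beyond 6 markers the levels both fell and rose. After single-dose PBS they were 332 CPM (271 to 403) at 6 markers, 224 CPM (155 to 313) at 7 and 478 CPM (300 to 724) at 8. After repetitive bleomycin they were 333 CPM (268 to 410) at 7 and 227 CPM (109 to 418) at 8. After single-dose bleomycin the level was 500 CPM (317 to 750) at 7, and only 3 barcodes had 8. Intervals of neighbouring marker numbers from 6 upward overlapped in each library. Barcodes with no LipoFB marker held more Car2 after repetitive bleomycin than after repetitive PBS, with intervals of 26.1 to 52.1 CPM against 0.0822 to 18.1 CPM. FBs under 2000 UMIs were left out of these values, and median FB depth was 3762 UMIs after repetitive bleomycin against 10500 after PBS. The FB subsets also differed, with 1915 against 643 matrix FBs and 3613 against 403 FBs without a subset. What depth and subsets add to this difference was not tested. In the single-dose PBS library only 33 barcodes had no LipoFB marker, with 45.5 CPM (9.37 to 132.8), so that a difference from the 58.6 CPM of bleomycin was not detectable at this depth.

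**Figure D2:**
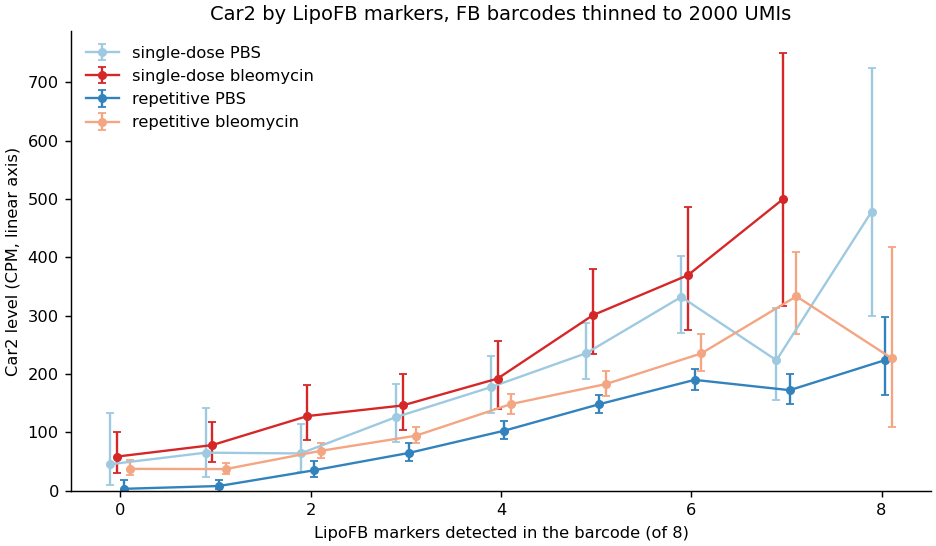
Car2 level (CPM, linear axis) in FB barcodes thinned to 2000 UMIs, by the number of the 8 LipoFB markers detected, with 1 line per lung library and 95% Poisson intervals of counting error. Groups under 20 barcodes are not drawn. The repetitive PBS line goes from 3.25 CPM at 0 markers to 190 CPM at 6, 172 CPM at 7 and 224 CPM at 8.

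Across all FBs the bleomycin to PBS difference in Car2 was small. The log2 ratio was 0.24 (0.14 to 0.35) after a single dose and −0.04 (−0.09 to 0.00) after repetitive doses, where the median gene lay at 0.11. Within LipoFBs it was larger. LipoFB-gated barcodes went from 199.7 to 386 CPM after a single dose, a log2 ratio of 0.95 (0.82 to 1.07), and from 143 to 208 CPM after repetitive doses, a log2 ratio of 0.54 (0.48 to 0.60). LipoFBs made up 80.6 and 80.9% of FBs after PBS, and 27.1 and 22.5% after single-dose and repetitive bleomycin. At 2000 UMIs a barcode, 41.0% (34.6 to 47.6%) of LipoFBs had a Car2 UMI after single-dose bleomycin against 30.6% (27.3 to 34.1%) after PBS, and 29.9% (27.5 to 32.4%) against 24.4% (23.1 to 25.7%) in the repetitive libraries. LipoFBs that passed the gate narrowly (28.9 and 40.2% of those after bleomycin, 8.1 and 6.7% after PBS) are part of these values. Keeping barcodes with a lead of 1 marker gave ratios of 0.78 and 0.39. With every barcode weighted equally the repetitive LipoFB ratio was 0.32 and the single-dose ratio over all FBs 0.081. Matrix FBs also went from 7.44 to 14.6 CPM after repetitive bleomycin, a log2 ratio of 0.89 (0.44 to 1.35), while B cell-gated barcodes of these libraries stood at 5.66 CPM (0.143 to 31.6, 1 UMI) and 20.7 CPM (9.47 to 39.3, 9 UMIs) and myeloid barcodes at 4.10 and 2.93 CPM. What free RNA adds to the matrix FB value was not tested.

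Car2 is abundant in erythrocytes and their precursors, and red cell genes were checked beside it. The summed level of Hbb-bs, Hbb-bt, Hba-a1, Hba-a2 and Alas2 was 0.203 to 0.939 CPM over all FBs of the 6 libraries. In LipoFBs it was 1.17 CPM after single-dose PBS and 0 CPM after single-dose bleomycin. After repetitive PBS and bleomycin it was 0.583 and 1.44 CPM in LipoFBs. What red cell RNA adds to the Car2 level of FBs was not tested. Endothelial-gated barcodes also had Car2, at 204 CPM (148 to 275) in 26 barcodes after single-dose PBS, 73.4 CPM (31.7 to 145) in 6 after single-dose bleomycin, 112 CPM (90.2 to 137) in 75 after repetitive PBS and 147 CPM (101 to 207) in 31 after repetitive bleomycin. In 34 of the 75 at least 1 Car2 UMI was found. The red cell genes summed to 255 CPM in the endothelial barcodes after repetitive PBS and to 71.3 CPM after repetitive bleomycin, and the endothelial barcodes carried a median of 1 to 2.5 of the 8 FB markers. The part of either in the endothelial Car2 level was not tested.

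Car13, the other broadly expressed cytosolic enzyme, had a different distribution. It was lower in LipoFBs than in matrix FBs of the repetitive libraries, at 3.42 against 10.1 CPM after PBS (log2 ratio −1.33, −1.71 to −0.93) and 5.46 against 10.8 CPM after bleomycin (−0.86, −1.22 to −0.51). In the matrix FBs of all 4 lung libraries it stood between 8.83 and 11.1 CPM. Over all FBs Car13 was at 2.35 CPM (15 UMIs) after single-dose PBS and 10.8 CPM (117 UMIs in 100 barcodes) after single-dose bleomycin, a log2 ratio of 1.81 (1.21 to 2.40). After repetitive doses it went from 4.48 to 8.35 CPM, a log2 ratio of 0.77 (0.59 to 0.95). The single-dose ratio was past 2-fold, as were 7.41% of genes with 50 or more UMIs in the higher direction. The repetitive one was not, where 6.85% of genes were. Within LipoFBs the levels were 1.17 and 7.67 CPM (6 and 22 UMIs) in the single-dose libraries and 3.42 and 5.46 CPM in the repetitive ones, a log2 ratio of 0.55 (0.23 to 0.86) for the latter. In matrix FBs the repetitive libraries were at 10.1 and 10.8 CPM, a log2 ratio of 0.08 (−0.34 to 0.52). Its values rest on few UMIs, and with 10 CPM in place of 1 CPM added to each level the ratios over all FBs were 0.75 and 0.34.

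Car3 had few UMIs apart from 1 barcode. The single-dose bleomycin library had 409 Car3 UMIs, and 389 of them were in a single barcode of 34654 UMIs. The other 5 libraries had 1 to 18 Car3 UMIs each, of which 16 of the 18 in the normal organoids were also in 1 barcode. The barcode rich in Car3 carried 478 UMIs of Fabp4, 58 of Adipoq, 26 of Plin1, 6 of Cidec and 6 of Retn, which are genes of fat cells, and 1 UMI of Pdgfra and 0 of Col1a1. In the other 867 FBs of this library Plin1 and Cidec had 1 UMI each, Retn 3 UMIs in 3 barcodes and Adipoq 16 UMIs in 16. Fabp4 had 128 UMIs in 92 of these FBs, and Col1a1 had 34054 UMIs. The barcode rich in Car3 passed the FB gate without a subset. With it, the log2 ratio of bleomycin over PBS in FBs was 5.06 (408 UMIs against 1), and without it 1.25 (19 UMIs in 19 barcodes against 1 UMI). The size of the Car3 difference between these libraries thus rests on 1 barcode, while the rest stayed past 2-fold on 20 UMIs in all, under the minimum of 50 used for calls.

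Car4 was found mainly outside the FBs. Endothelial-gated barcodes had 261 CPM (55 UMIs in 26 barcodes) after single-dose PBS, 333 CPM (277 UMIs in 75 barcodes) after repetitive PBS and 129 CPM (29 UMIs in 31 barcodes) after repetitive bleomycin. After single-dose bleomycin only 6 endothelial barcodes were present, with 57 Car4 UMIs in 2 of them. The level varied strongly among endothelial barcodes, since 33 of 75 had a Car4 UMI after repetitive PBS and the 10 richest held 72.6% of the UMIs. The endothelial and aerocyte genes Pecam1, Cdh5, Ednrb, Apln, Fibin and Tbx2 were summed beside it. Their level was 1845, 3234 and 3116 CPM in endothelial barcodes after single-dose PBS, repetitive PBS and repetitive bleomycin. Among these groups Car4 was highest where this list was highest, but was not lowest where the list was lowest. The 6 endothelial barcodes after single-dose bleomycin had a higher Car4 level, 523 CPM (396 to 678), and the list was not summed there. The FBs of every lung library also carried the list, at 217 to 303 CPM, with 271 to 338 CPM in LipoFBs and 111 to 132 CPM in matrix FBs. What the single genes of the list add to these FB values was not tested. Myeloid-gated barcodes also had Car4, at 58.7 CPM (42.5 to 79.1) after repetitive PBS and 53.5 CPM (42.0 to 67.3) after repetitive bleomycin, in 11 of 91 and 13 of 134 barcodes. After single-dose PBS 15 myeloid barcodes held 0 Car4 UMIs (0 to 33.3 CPM). After single-dose bleomycin 17 held 1 UMI (7.13 CPM, 0.181 to 39.7). Barcodes that passed no lineage gate had 47.4 and 8.24 CPM after single-dose PBS and bleomycin, and 94.8 and 12.4 CPM (164 and 21 UMIs) after repetitive PBS and bleomycin. Over all FBs Car4 was between 0.419 and 3.29 CPM. In the organoids, where at most 1 endothelial barcode was gated, 8 and 11 Car4 UMIs were found in all.

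Car12 was close to the limit of detection in the lung. No Car12 UMI was found in the 938 FBs after single-dose PBS (interval 0 to 0.578 CPM). After single-dose bleomycin the FBs had 18 UMIs (1.66 CPM, 0.982 to 2.62). Of these, 12 were in 1 MyoFB-gated barcode that also held 44 UMIs of Cthrc1, and the other 6 were spread over 5 barcodes without a subset. The repetitive libraries had 3 and 9 Car12 UMIs in FBs. In the organoids the FBs had 37 UMIs (0.319 CPM, 0.224 to 0.439) and 73 UMIs (0.449 CPM, 0.352 to 0.565), normal and fibrogenic, spread over 33 and 65 barcodes. The log2 ratio was 0.14 (−0.03 to 0.29). Epithelial barcodes had 9 and 7 UMIs.

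**Figure D3:**
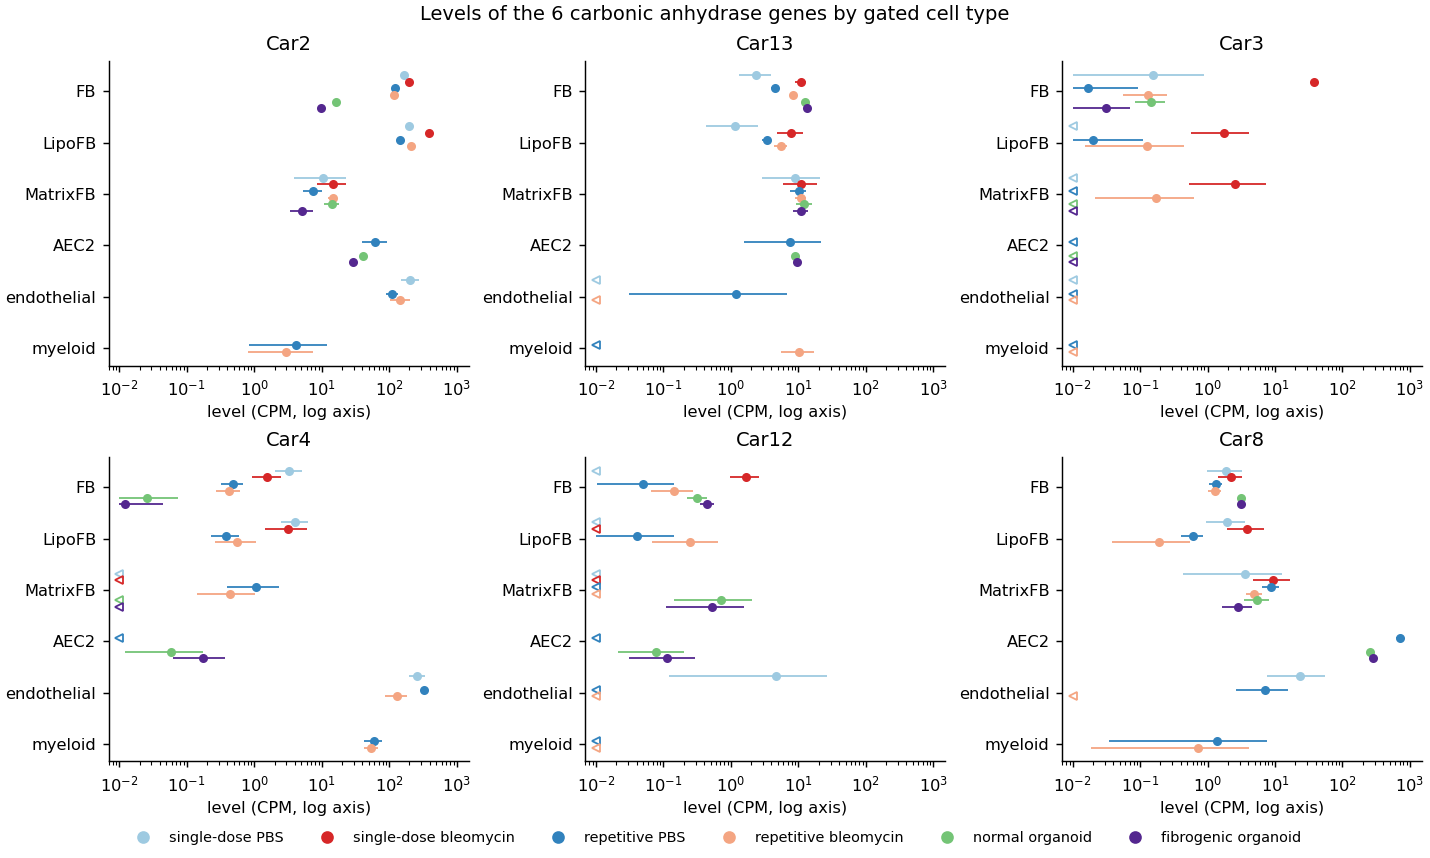
Levels (CPM, log axis) of the 6 genes in barcodes gated as FB, LipoFB, matrix FB, AEC2, endothelial and myeloid, with 1 point per library and 95% Poisson intervals of counting error. Groups under 20 barcodes are not drawn, open triangles mark 0 UMIs, and intervals are cut at 0.01 CPM. Car2 stands at 143 to 386 CPM in LipoFBs and 112 to 204 CPM in endothelial barcodes, Car4 is highest in endothelial barcodes and Car8 in AEC2s, while the single Car3 point at 37.6 CPM holds the barcode rich in Car3.

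Of the 6 genes, Car8 had the highest level in AEC2s, the surfactant-producing cells of the alveolus. In the normal organoids AEC2-gated barcodes had 253 CPM (248 to 257), against 39.9 CPM (35.0 to 45.3) in AEC1-gated barcodes, the flat gas exchange cells, and 18.8 CPM (15.9 to 21.9) in barcodes gated by the markers of PATS, a transitional state between AEC2 and AEC1. The fibrogenic organoids had the same order, with 283 CPM (278 to 289), 37.0 CPM (31.6 to 43.1) and 29.8 CPM (26.5 to 33.4). The log2 ratio of AEC2s over AEC1s was 2.63 (2.45 to 2.82) and 2.90 (2.69 to 3.12), and that of AEC2s over PATS was 3.68 (3.46 to 3.91) and 3.21 (3.04 to 3.37). Cycling epithelium had 193 and 187 CPM. At 2000 UMIs a barcode, a Car8 UMI was found in 35.6% (32.8 to 38.5%) and 39.6% (36.5 to 42.8%) of AEC2s, in 6.18 and 5.06% of AEC1s and in 4.25 and 5.56% of PATS. The few AEC2s caught in the sorted lung cells had still more, with 701 CPM (622 to 788) in 25 barcodes after repetitive PBS, of which 24 had a Car8 UMI. The tissue, the culture and the library differ between these values and cannot be told apart.

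The FBs of the organoids had 3.13 and 3.17 CPM of Car8. That is 1.24 and 1.12% of the AEC2 level of the same culture. The AEC2 genes Sftpc, Lamp3 and Slc34a2 were at 1.47, 1.21 and 1.31% of their AEC2 levels in the normal FBs and at 1.20, 1.08 and 1.06% in the fibrogenic FBs. Abca3, also an AEC2 marker, was at 4.71 and 5.04%. Lamp3, Slc34a2 and Abca3 were used in the AEC2 gate and Sftpc was not. The share of Car8 in organoid FBs was near that of 3 of these 4 transcripts and below that of Abca3. Car2 was at 40.1 and 33.3% of its AEC2 level and Car13 was above its AEC2 level. What RNA from AEC2s adds to the FB levels of these genes was not tested. Within Sfrp1-gated FBs Car8 was at 1.63 and 3.84 CPM (log2 ratio 0.88, 0.41 to 1.32), and the share of the AEC2 level went from 0.646 to 1.36% for Car8 and from 0.753 to 1.04% for Sftpc. In the other gates the shares moved apart. In cycling FBs Car8 went from 0.674 to 1.20% and Sftpc from 1.27 to 0.871%. In MyoFBs Car8 went from 1.44 to 1.52% and Sftpc from 2.27 to 1.35%.

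Between the organoids Car8 was at 195.3 CPM in normal and 195.9 CPM in fibrogenic epithelium, a log2 ratio of 0.00 (−0.03 to 0.04). In AEC2s the log2 ratio was 0.16 (0.13 to 0.20), in AEC1s −0.11 (−0.39 to 0.18), in cycling epithelium −0.05 (−0.15 to 0.05) and in PATS 0.64 (0.37 to 0.92). PATS made up 11.5% of the normal and 19.7% of the fibrogenic epithelium. Over all barcodes the ratio was −0.54, since epithelium held 40.0% of all UMIs in the normal and 26.6% in the fibrogenic library.

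In lung FBs Car8 was at 1.29 to 2.21 CPM. In the repetitive libraries matrix FBs held 49 of 80 and 56 of 80 of its FB UMIs, with 8.68 CPM (6.42 to 11.5) after repetitive PBS and 4.90 CPM (3.70 to 6.36) after repetitive bleomycin, against 0.603 CPM (0.407 to 0.861) and 0.188 CPM (0.0389 to 0.551) in LipoFBs. In the single-dose libraries matrix FBs held 2 of 12 and 11 of 24 UMIs and LipoFBs 10 of 12 and 11 of 24. As levels, matrix FBs had 3.53 CPM (0.428 to 12.8) against 1.95 CPM (0.933 to 3.58) in LipoFBs after PBS. After bleomycin they had 9.37 CPM (4.68 to 16.8) against 3.84 CPM (1.91 to 6.86), with 8 of the 11 LipoFB UMIs in 1 barcode. The intervals overlapped, and these UMIs were too few to order the subsets. In the repetitive libraries the UMIs were spread over 26 and 35 matrix FB barcodes, while 15 of the 30 in LipoFBs after PBS were in a single barcode. The log2 ratio of repetitive bleomycin over PBS in matrix FBs was −0.71 (−1.21 to −0.21). The single-dose matrix FBs pointed the other way, from 3.53 to 9.37 CPM, with a log2 ratio of 1.19 (−0.70 to 3.04) that rests on 2 and 11 UMIs. Over all FBs of the repetitive libraries the ratio was −0.03 (−0.29 to 0.24).

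In the organoids Car2 was lower in the fibrogenic culture in the epithelium, in the FBs and in each of their gated types with 50 or more UMIs over both cultures. In barcodes that passed no lineage gate it was higher, at 26.5 and 35.4 CPM, where 1 barcode held 147 of 359 UMIs of the fibrogenic culture. Epithelium went from 38.4 CPM (3244 UMIs) to 24.1 CPM (1524 UMIs), a log2 ratio of −0.65 (−0.74 to −0.57). AEC2s went from 40.6 to 29.0 CPM (−0.47, −0.58 to −0.37), cycling epithelium from 59.3 to 42.3 CPM (−0.48, −0.68 to −0.28) and AEC1s from 29.5 to 17.6 CPM (−0.71, −1.09 to −0.34). PATS had 5.57 and 3.98 CPM, and the interval of their log2 ratio, −0.93 to 0.13, included 0. At 2000 UMIs a barcode, 7.19% (5.77 to 8.84%) of normal and 4.28% (3.08 to 5.79%) of fibrogenic AEC2s had a Car2 UMI.

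Organoid FBs had far less Car2 than fresh lung FBs, with 16.3 CPM (15.5 to 17.01) in the normal and 9.66 CPM (9.19 to 10.2) in the fibrogenic culture. Tissue, culture and library cannot be told apart here, and only 2 and 4 organoid FBs passed the LipoFB gate. The log2 ratio of fibrogenic over normal was −0.69 (−0.78 to −0.60) over all FBs and −1.40 (−1.61 to −1.19) in MyoFB-gated FBs, which went from 37.2 to 13.5 CPM. Few barcodes carried these UMIs. A Car2 UMI was found in 64 of 212 and 50 of 579 MyoFB barcodes, and the 10 richest held 53.8 and 76.5% of the UMIs. Median depth was 56264 UMIs in normal and 6626 in fibrogenic MyoFBs. After thinning to 2000 UMIs the shares were 6.28% (13 of 207 barcodes) and 2.11% (10 of 473 barcodes), with 5 and 106 shallower barcodes left out.

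**Figure D4:**
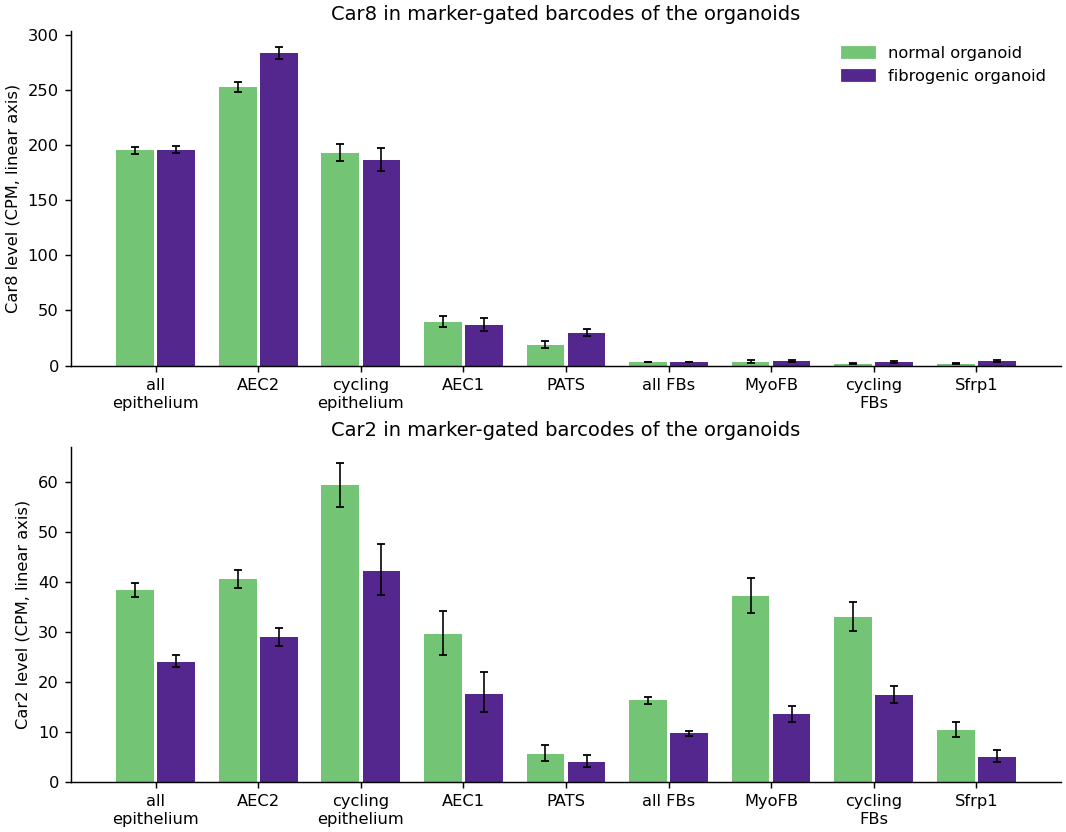
Levels (CPM, linear axes) of Car8 and Car2 in gated epithelium and FBs of the normal and fibrogenic organoids, with 95% Poisson intervals of counting error. Car8 stands at 253 and 283 CPM in AEC2s and under 5 CPM in FBs, and every Car2 bar of the fibrogenic organoids is lower than its normal neighbour.

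Car13 differed little between the organoids. Over all barcodes it was at 11.0 and 11.8 CPM. Epithelium had 8.55 and 8.51 CPM (log2 ratio −0.01, −0.15 to 0.14) and FBs 12.7 and 13.3 CPM (0.07, −0.02 to 0.15). Cycling FBs had 19.7 CPM (17.5 to 22.1) and 18.2 CPM (16.5 to 20.1), above the FBs without a subset at 11.7 CPM (10.8 to 12.5) and 12.8 CPM (12.1 to 13.6).

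Counted over the 6 genes, Car3 and Car13 were past 2-fold in single-dose FBs, both higher after bleomycin, of 3 members with 50 or more UMIs over both libraries. Of all 10853 genes with as many UMIs, 11.1% were past 2-fold, with 7.41% higher. Without the barcode rich in Car3, Car3 stayed past 2-fold (1.25) but fell under 50 UMIs, so that Car13 alone was counted. In repetitive FBs 0 of 4 members passed (8.69% of all genes), in organoid epithelium 0 of 3 (0.439%) and in organoid FBs 0 of 4 (1.06%). Car4 in repetitive FBs and Car12 in organoid FBs were under 1 CPM. With 1 CPM added they could not be called 2-fold lower. With every barcode weighted equally, Car8 was past 2-fold in organoid FBs, at 1.39 in place of 0.02. Within LipoFBs 0 of 1 passed after a single dose (7.55%) and 0 of 2 after repetitive doses (6.7%). Among the organoid FB subsets with a ratio, Car2 in MyoFBs was past 2-fold and lower, as were 1.03% of the genes measured in those cells. No ratio was formed for organoid matrix FBs. Car2 was also lower there, at 14.1 CPM (60 UMIs in 10 barcodes) and 5.15 CPM (29 UMIs in 8 barcodes), normal and fibrogenic.

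**Figure D5:**
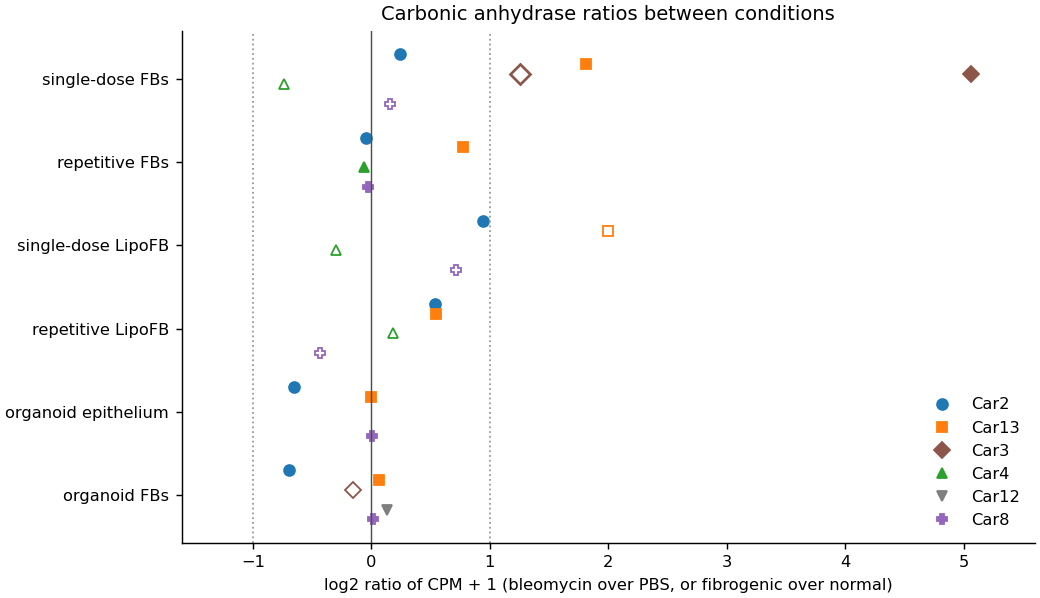
Log2 ratios of CPM + 1, bleomycin over PBS or fibrogenic over normal, for each gene with 20 or more UMIs over both libraries. Filled symbols have 50 or more UMIs, dotted lines mark 2-fold, and the large open diamond is Car3 without its richest barcode, at 1.25 in place of 5.06.

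The 10 other carbonic anhydrase genes were all below Car2 in lung FBs. Car5b, a mitochondrial enzyme, was at 10.1 and 8.89 CPM in FBs of the repetitive libraries (604 and 552 UMIs), a log2 ratio of −0.16 (−0.31 to −0.01), and at 4.54 and 4.70 CPM in the single-dose libraries. After PBS it was above every member but Car2. Car11, which like Car8 is without catalytic activity, was at 1.91 and 2.53 CPM after repetitive PBS and bleomycin. Car6, the secreted family member, had 0 to 7 UMIs in FBs of each lung library. In organoid FBs it had 1175 UMIs (10.1 CPM, 9.55 to 10.7) in the normal and 2342 UMIs (14.4 CPM, 13.8 to 15.0) in the fibrogenic culture, a log2 ratio of 0.47. Car9, known as a hypoxia-induced membrane enzyme, was at 1.48 and 1.88 CPM in organoid FBs. None of the 10 passed 2-fold with 50 or more UMIs in the 4 main comparisons. The 1 CPM added to each level limits such calls for genes under 1 CPM. Car10 in repetitive FBs went from 0.266 to 0.773 CPM (16 and 48 UMIs), a ratio of 2.90 (1.62 to 5.48) without the added 1 CPM.

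A list of 30 genes that move bicarbonate, protons, lactate, chloride or water, with the inositol trisphosphate receptors, was read beside them. In single-dose FBs 13 had 50 or more UMIs, and 2 were past 2-fold, both higher, against 7.41% of all genes. Slc16a1, a proton-coupled lactate transporter, went from 5.32 to 29.3 CPM (log2 ratio 2.26). Slc4a7, a sodium bicarbonate cotransporter, was at 0.95, and the lowest were Itpr1 at −0.14, Bsg at 0.06 and Slc4a4 at 0.21. In repetitive FBs 3 of 17 were past 2-fold, all higher, against 6.85% of all genes. Slc16a1 went from 9.35 to 20.4 CPM (1.04), the proton channel Hvcn1 from 1.05 to 3.87 CPM (1.25) and the water channel Aqp5 from 0.366 to 2.98 CPM (1.54). Aqp5 is an epithelial gene and one of the AEC1 gate markers, and Hvcn1 is known from immune cells. Itpr3 (−0.19), Itpr1 (−0.14) and Bsg (0.12) were the lowest.

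In organoid epithelium 0 of 23 listed genes were past 2-fold, against 0.439% of all genes. The lowest were the anion exchanger Slc26a4, from 52.7 to 34.2 CPM (−0.61), the lactate transporter Slc16a3, from 64.9 to 44.1 CPM (−0.55), and Aqp1 (−0.48), and the highest were Slc4a10 (0.58), Slc9a2 (0.52) and Slc4a3 (0.31), each under 4 CPM. In AEC2s the lowest were Slc16a3 (−0.70), the sodium bicarbonate cotransporter Slc4a4, from 127 to 88.5 CPM (−0.52, −0.58 to −0.46), and Aqp5, from 896 to 673 CPM (−0.41). The highest in AEC2s were Itpr1, the Car8 partner, from 76.2 to 89.6 CPM (0.23, 0.17 to 0.30), Slc4a2 (0.14) and Itpr3 (0.03). In organoid FBs 1 of 20 was past 2-fold and lower, against 0.823% of all genes, the water channel Aqp1, which went from 14.6 to 4.48 CPM (−1.51). Atp1b1 (−0.45) and Slc26a4 (−0.44) followed, and Slc9a3r1, a scaffold of the sodium-proton exchanger, was highest at 0.68, before Slc4a10 (0.28) and Slc16a3 (0.20).

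The genes whose levels ran most like each member were sought over 44 groups of 30 or more barcodes, which share libraries and depth. For Car2 these were Enpep (r = 0.74), the LipoFB gate marker Ces1d (0.73) and Arhgef7 (0.72). For Car8 they were the epithelial gate marker Cldn3 (0.92), Lgi3 (0.91) and Sfta2 (0.90), and for Car4 the endothelial genes Cd93 (0.94) and Clec1a (0.92), with Hpgd (0.89). Car13 ran with P4hb (0.85), Timp1 (0.83) and Cd63 (0.82), which serve protein folding, protease inhibition and vesicle membranes. For Car12 the closest were Desi1 (0.61), Mrps26 (0.58) and Btf3l4 (0.57), and for Car3 Wdr89 (0.54), Clptm1l (0.49) and Cdk2ap1 (0.49), both members with few UMIs.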

How the data were processed

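UMI counts per gene and barcode were used as the authors deposited them, with 1 table per library (Cell Ranger 3.0.1 and Seurat 3 are named in the submitters' processing notes, with the mm10 genome). The annotation is stated for the single-dose libraries only, as Gencode. Barcodes with 1000 or more UMIs and at most 25% mitochondrial UMIs were kept. A marker counted at 1 or more per 10000 UMIs, and a type needed 3 of 8 markers and a lead of 2. No doublet caller was run. Barcodes without a lead of 2 markers stayed unassigned, while barcodes that carried markers of more than 1 lineage could still be given a type. Levels were summed UMIs as CPM with exact Poisson intervals, and ratios were log2 of CPM + 1 with a conditional exact binomial interval carried to that scale (Python 3.11.15, scipy 1.17.1). There was no test, since each group was 1 library. Depth was 7201081 to 238618743 UMIs per library. Genes with 50 or more UMIs and 2-fold were counted. The named genes were the 6 members, the other family genes, and the 3 highest and 3 lowest of the partner list per comparison and, for likeness, the 3 genes of highest Pearson r among those averaging 20 CPM or more, with erythrocyte genes beside Car2 and endothelial genes beside Car4. A gene of the partner list is not reported here by name. The members and lists were chosen with earlier results of these data known. The intervals were checked on simulated counts.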

Additional observations from a re-analysis of the deposited data

Results flagged for a closer look

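Car2 over all FBs was higher after single-dose bleomycin than after PBS, with a log2 ratio of 0.24, and lower after repetitive bleomycin, with a log2 ratio of −0.045. It is listed because the same contrast pointed opposite ways in the 2 exposures, with 1 library in each group. The difference was not tested. The interval of counting error was 0.14 to 0.35 for the former and −0.09 to 0.00 for the latter. In LipoFB-gated barcodes both exposures were higher, at 0.95 and 0.54.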

How the results depend on the processing

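No paired analysis was possible because each condition was 1 library and the labels give no shared replicate numbers, and no library could be left out for the same reason. Of 191 values of 21 log2 ratios under other settings, 153 stayed within the counting interval, 173 kept their sign, and 0 ratios past 2-fold reversed. With each barcode weighted equally, the Car2 ratio was 0.081 in single-dose FBs, −0.20 in repetitive FBs and 0.32 in repetitive LipoFBs, Car8 in organoid epithelium was −0.11, and 1 member (Car8, at 1.39) passed 2-fold in organoid FBs. A lead of 1 marker gave 0.78 and 0.39 for Car2 in single-dose and repetitive LipoFBs. Centring on the median gene gave −0.15 and 0.45 for Car2 in repetitive FBs and LipoFBs, and −0.036 for Car8 in organoid epithelium. With no gate Car2 was 0.21 and −0.081 in the libraries of the LipoFB comparisons and −0.77 in the organoids, Car8 was −0.54, and 1 member (Car4) passed 2-fold in the repetitive libraries. A pseudocount of 10 CPM gave −0.51 for Car2 in organoid epithelium and 1 member past 2-fold in single-dose FBs, as did leaving out the barcode rich in Car3, which was chosen after seeing the data. With no minimum number of UMIs 3 members (Car12 added) were past 2-fold there. A 1.5-fold limit gave 1 member each in repetitive FBs, organoid epithelium and organoid FBs. A minimum of 5000 UMIs, also chosen after seeing the data, gave 0.60 for Car2 in repetitive LipoFBs. Beyond these settings the cause was not tested. Counting error is the only error known here, and the spread between mice is not. Levels under about 1 CPM rest on few UMIs.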
